A study of Rattus norvegicus with 22 samples.

Results

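Acp5, Ctsk and Car2 are genes whose protein products resorbing bone cells depend on, and their RNA levels were followed over all 22 arrays of a rat study of fetal malformation. The members are every probe set annotated with 1 of the 3 symbols: 1367942_at for Acp5, 1369947_at for Ctsk, and both 1386922_at and 1367733_at for Car2, which makes 4 of 15866 probe sets and 3 of 10411 genes. No filter on low values was used, so all 4 were tested. Pregnant Wistar rats received vehicle (control), the calcium sensitiser EMD 82571 at 50 mg/kg/day (EMD50) or 150 mg/kg/day (EMD150), or retinoic acid at 12 mg/kg/day (RA). The protocol lists 2 dosing courses, from gestational day 6 to 11 and from day 6 to 17. The design text, which calls the compound MSC1096199, lists the longer course only. Tissue and day formed 5 strata: embryo bone, embryo liver and maternal liver at day 20, and whole embryo and maternal liver at day 12. Each stratum had 1 array per treatment, and both day 12 strata had a second RA array, the pair being coded RA5 and RA56 in the labels without an explanation. The RA arrays of day 20 all carry the code RA56. Embryo bone thus had 4 arrays, 1 per treatment. The sources used here do not say whether a sample came from 1 animal, a litter or a pool, or whether samples share a dam, so p-values measure the spread between these arrays only.

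Osteoclasts are large cells that form by fusion of precursors of the macrophage lineage and dissolve bone. They seal off a patch of bone, pump acid into it to free the mineral, and secrete enzymes that cut the exposed collagen. Ctsk encodes cathepsin K, the protease that cuts this collagen. Acp5 encodes tartrate-resistant acid phosphatase, the classical stain for the cell. Car2 encodes carbonic anhydrase II, a cytosolic enzyme that makes protons for the acid pump and is also abundant in red cells. The signal from RANKL through NFATc1, with AP-1, PU.1 and MITF, drives transcription of osteoclast genes.

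Promoter windows of 250 bases before to 50 bases after the annotated start were taken from RefSeq (rat assembly GRCr8) for Ctsk (1 window) and Acp5 (2 windows). No window for Car2 was used here. They are shown because Acp5 and Ctsk shared their high level in bone. Capitals mark matches, on either strand, to GGAAA (NFAT core), TGANTCA (AP-1), GAGGAA (PU.1 core) and CANNTG (the E-box that MITF can bind).
Ctsk, chr2:185747298-185747597, plus strand: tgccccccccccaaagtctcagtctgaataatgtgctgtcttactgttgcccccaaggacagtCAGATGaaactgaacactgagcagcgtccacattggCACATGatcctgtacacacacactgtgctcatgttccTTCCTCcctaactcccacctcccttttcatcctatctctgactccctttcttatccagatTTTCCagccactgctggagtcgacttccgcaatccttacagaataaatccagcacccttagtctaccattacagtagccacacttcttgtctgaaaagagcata
Acp5, upstream start, chr8:28945881-28946180, minus strand: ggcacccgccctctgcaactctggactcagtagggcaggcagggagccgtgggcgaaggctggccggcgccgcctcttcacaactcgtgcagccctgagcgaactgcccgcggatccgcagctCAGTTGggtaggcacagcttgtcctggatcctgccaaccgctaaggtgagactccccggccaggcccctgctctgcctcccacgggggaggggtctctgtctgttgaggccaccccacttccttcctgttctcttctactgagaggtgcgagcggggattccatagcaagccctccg
Acp5, downstream start, chr8:28943880-28944179, minus strand: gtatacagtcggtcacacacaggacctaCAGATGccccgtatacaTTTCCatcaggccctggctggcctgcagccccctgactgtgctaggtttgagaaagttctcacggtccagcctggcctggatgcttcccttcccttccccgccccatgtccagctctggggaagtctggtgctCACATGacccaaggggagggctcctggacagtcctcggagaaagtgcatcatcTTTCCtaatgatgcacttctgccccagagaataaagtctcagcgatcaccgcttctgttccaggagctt

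The Ctsk window held 1 NFAT core with its first base at -54 from the start, 1 PU.1 core at -114 and 2 E-boxes at -187 and -151. The downstream Acp5 window held 2 NFAT cores at -205 and -19 and 2 E-boxes at -222 and -72, and the upstream one held 1 E-box at -127. No marked matches overlapped, and none of the 3 windows held the AP-1 letters. Such letters are common: of 33469 windows of 300 bases in the table, 62.7% held the NFAT core, 27.6% the PU.1 core, 72.1% an E-box and 7.33% the AP-1 motif. A match is a stretch of letters and not a measured binding site.

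Col1a1 and Alb followed the tissue labels, which does not speak to the purity of the samples. Col1a1, the main bone collagen, lay at 14.55 to 14.68 (log2) in embryo bone and at most 12.79 in any other array. Alb, the albumin gene of hepatocytes, lay at 14.93 or above in all liver arrays, and at 9.44 to 13.60 in the bone arrays. The EMD50 bone array stood apart in RNA integrity: its GAPDH control probe sets differed by 2.72 (log2) between the 3′ and the 5′ end, against 0.57 to 0.86 on the 21 others. Counts of called genes that change when that array is left out are given both ways below.

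Acp5 was highest in embryo bone. Its log2 level there was 12.33 in control, 11.40 in EMD50, 11.19 in EMD150 and 12.15 in RA, a mean of 11.77 ± 0.56 (SD, n = 4). It averaged 9.59 ± 0.25 (n = 4) in maternal liver of day 20, 8.84 ± 0.18 (n = 4) in embryo liver, 8.65 ± 0.16 (n = 5) in maternal liver of day 12 and 6.91 ± 0.47 (n = 5) in whole embryo. All 4 bone arrays lay above all 18 others, as 5.02% of all probe sets did, and the lowest bone array exceeded the highest maternal liver array of day 20 by 1.37. Against the mean of the other strata Acp5 was higher by 3.29 ± 0.17 (SE, log2), or 9.75-fold (limma, adjusted p = 2.42e-12). The fold over whole embryo was 29.6 (log2 4.89 ± 0.21, limma, adjusted p = 4.05e-13), and over maternal liver of day 20 it was 4.52 (log2 2.18 ± 0.22, limma, adjusted p = 4.02e-08). In this comparison with the other strata, 3 of the 4 member probe sets passed an adjusted p of 0.05, beside 51.8% of all probe sets. Acp5 and Ctsk were the 2 higher ones (24.9% of all probe sets were called higher) and 1386922_at of Car2 was the lower one (26.8% were called lower). Against single strata, Acp5 and Ctsk were called higher in bone all 4 times, as were 25.6% of all probe sets over embryo liver, 30.5% over maternal liver of day 20, 19.9% over whole embryo and 31% over maternal liver of day 12.

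Outside bone, Acp5 differed with the stage of pregnancy. The 4 maternal livers of day 20 had 9.73 in control, 9.82 in EMD50, 9.26 in EMD150 and 9.54 in RA. The 5 maternal livers of day 12 ran from 8.52 to 8.85. The difference was 0.98 ± 0.21 (limma, adjusted p = 0.00832), in a comparison that called 4.47% of all probe sets. Neither Ctsk (0.077 ± 0.23, limma, adjusted p = 0.953) nor Car2 1386922_at (-0.12 ± 0.15, 0.827) passed that test, while Car2 1367733_at was lower at day 20 by 0.64 ± 0.17 (0.0292). In the order of Acp5 levels, embryo liver and maternal liver of day 12 were neighbours that did not pass (0.23 ± 0.21, adjusted p = 0.409). Embryo liver lay below maternal liver of day 20 (-0.75 ± 0.22, adjusted p = 0.0102), where 16.6% of all probe sets were called lower, but without the EMD50 maternal liver array the adjusted p was 0.0531. In whole embryo the control was at 6.48, EMD50 at 6.73, EMD150 at 6.81, and the RA arrays at 7.71 and 6.84, so that the RA pair differed more than the other 3 arrays did. Whole embryo was the lowest stratum, below maternal liver of day 12 by 1.73 ± 0.19 (limma, adjusted p = 1.22e-07).

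Ctsk followed the same pattern with a flatter floor. Its bone levels were 11.73 in control, 12.00 in EMD50, 10.99 in EMD150 and 12.87 in RA, a mean of 11.90 ± 0.78 (SD, n = 4). The means were 9.02 ± 0.08 (n = 4) in maternal liver of day 20, 8.99 ± 0.18 (n = 4) in embryo liver, 8.96 ± 0.06 (n = 5) in maternal liver of day 12 and 8.41 ± 0.27 (n = 5) in whole embryo. All 4 bone arrays again lay above all 18 others. Ctsk was higher in bone than in the mean of the other strata by 3.06 ± 0.19, or 8.34-fold (limma, adjusted p = 5.16e-11). The differences from single strata ran from 2.88 ± 0.24 over maternal liver of day 20 to 3.50 ± 0.23 over whole embryo (limma, adjusted p at most 6.53e-09). The 3 liver strata were not told apart: embryo liver and maternal liver of day 20 differed by -0.026 ± 0.24 (adjusted p = 0.949), and embryo liver and maternal liver of day 12 by 0.051 ± 0.23 (0.882). Whole embryo lay below maternal liver of day 12 by 0.55 ± 0.22 (adjusted p = 0.0329), where 34.3% of all probe sets were called lower. That call was lost without any 1 of 5 arrays: the whole embryo control or RA56 array, or the maternal liver control, EMD50 or EMD150 array of day 12, with the largest adjusted p, 0.117, without the RA56 whole embryo array.

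Car2 did not share this pattern and went against its grouping with the osteoclast genes. Probe set 1386922_at read 12.03 in control, 12.72 in EMD50, 12.76 in EMD150 and 12.91 in RA of embryo liver (mean 12.60 ± 0.39, SD, n = 4), where fetal red cells form. In embryo bone it read 9.92 in control, 9.70 in EMD50, 9.29 in EMD150 and 10.14 in RA (9.76 ± 0.36, n = 4). All 4 embryo liver arrays lay above all 18 others on both Car2 probe sets, as 2.99% of all probe sets did. Bone was lower than embryo liver by 2.84 ± 0.16 on 1386922_at, a 7.16-fold difference (limma, adjusted p = 1.52e-11), and by 2.35 ± 0.17 on 1367733_at (9.78e-10), where 29.6% of all probe sets were called lower. Against maternal liver, bone was higher on both: by 0.62 ± 0.16 at day 20 (adjusted p = 0.00239) and 0.50 ± 0.15 at day 12 (0.00835) on 1386922_at, and by 1.22 ± 0.17 (5.46e-06) and 0.58 ± 0.17 (0.00555) on 1367733_at. On 1386922_at, bone overlapped every stratum other than embryo liver. Without the control and RA bone arrays, the adjusted p-values on that probe set were 0.121 at day 20 and 0.329 at day 12. Whole embryo was not told apart from bone on either probe set (0.24 ± 0.15 higher in bone on 1386922_at, adjusted p = 0.203, and -0.084 ± 0.17 on 1367733_at, 0.715). Next in order, whole embryo and maternal liver of day 12 differed by 0.26 ± 0.14 on 1386922_at, which did not pass (0.115), and by 0.67 ± 0.16 on 1367733_at, which did (0.000875).

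Against the mean of all other strata Car2 1386922_at was lower in bone by 0.37 ± 0.12 (limma, adjusted p = 0.0180). Probe set 1367733_at gave -0.16 ± 0.14 (0.347), and without the EMD150 bone array 1386922_at gave -0.19 (0.196). Among 10411 genes ranked by this difference, from the highest in bone, Acp5 was number 81, Ctsk number 103 and Car2 number 8598. Markers of red cells, of neutrophils and marrow and of mast cells were, like Car2, highest in embryo liver. The mean log2 level of the 15 of 25 red cell genes measured, Car2 not among them, ran from 11.04 to 11.19 in embryo liver, from 8.82 to 9.09 in embryo bone, from 9.55 to 9.93 in whole embryo and from 7.97 to 8.32 in the maternal livers. The 8 of 18 neutrophil and marrow genes measured ran from 9.16 to 9.93 in embryo liver and were at most 7.35 in any other array, and the 10 of 11 mast cell genes ran from 8.04 to 8.19 and were at most 7.58 elsewhere. On each embryo liver array 4 of the 10 mast cell genes lay below the array's lower quartile. Of the 8 neutrophil and marrow genes 1 did so there, and 3 or 4 on every other array. The part of these lists in the Car2 level was not tested.

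**Figure D1:**
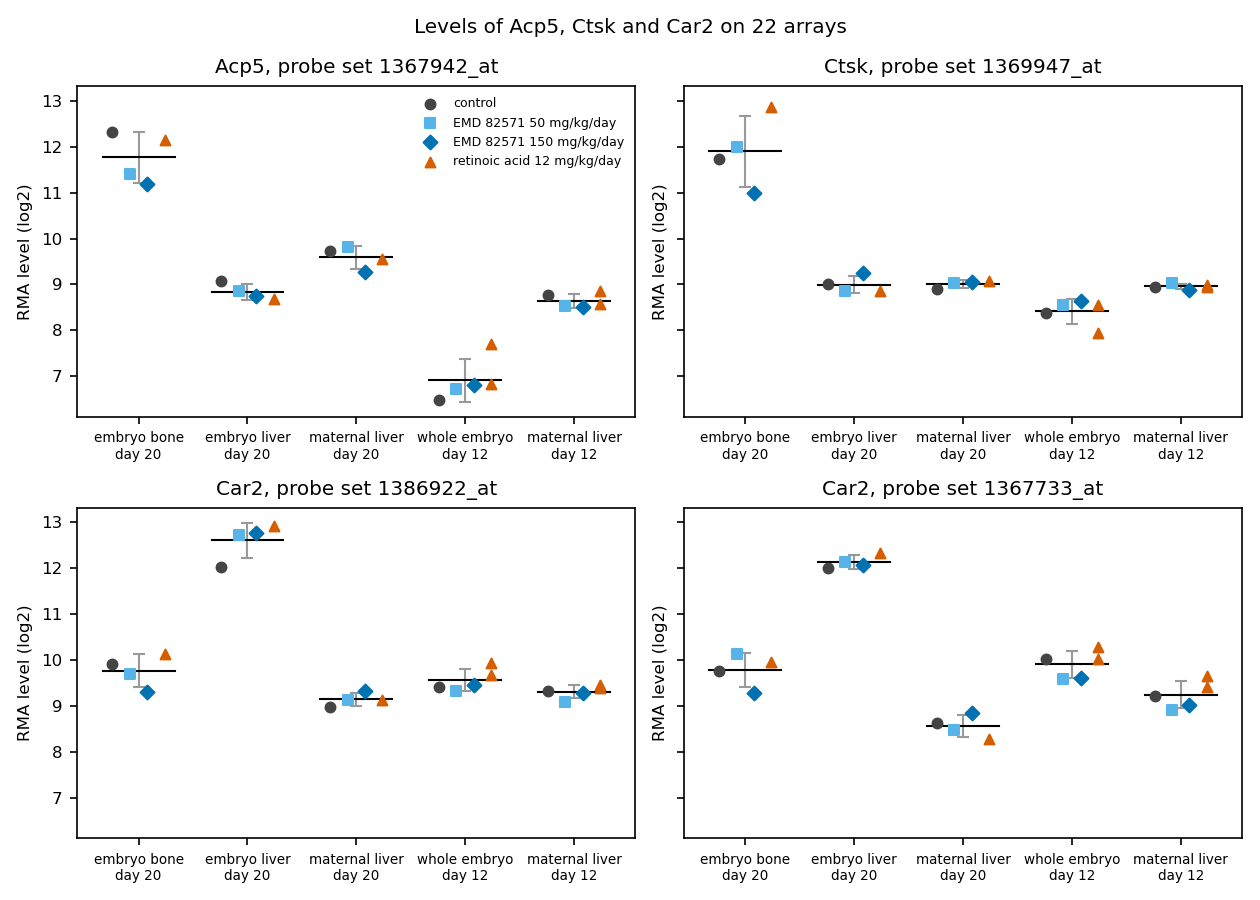
Levels of the 4 member probe sets (vertical axis, log2 RMA value) in 5 strata (horizontal axis), 1 point per array, coloured by treatment, with the mean as a black line and the SD as a grey bar. Acp5 and Ctsk lie highest in embryo bone, at 11.19 or above and 10.99 or above, and both Car2 probe sets lie highest in embryo liver, at 12.03 to 12.91 and at 12.00 to 12.34.

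Correlations over the 22 arrays describe the same split. They carry the difference between tissues, and arrays of a stratum are not independent of it. Acp5 and Ctsk had r = 0.883, Acp5 and Car2 1386922_at -0.0023, and Ctsk and Car2 1386922_at -0.032. Both Car2 probe sets had r = 0.950. For the deviations left after stratum and treatment were fitted, r was 0.372 for Acp5 with Ctsk and 0.593 between the Car2 probe sets. It was 0.281 for Ctsk and 0.209 for Acp5 with Car2 1386922_at, and 0.127 and -0.142 with Car2 1367733_at. The split was thus smaller in the deviations than in the log2 values.

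The genes most like each member were picked by Pearson r over the 22 arrays. For Acp5 these were Igfbp6 (0.948), Col6a1 (0.944), a collagen VI chain, Lim2 (0.938), Plod1 (0.936), a lysyl hydroxylase of collagen, and Pde4dip (0.933). For Ctsk they were Sln (0.991), the muscle regulator sarcolipin, Mmp9 (0.984), a gelatinase of osteoclasts, Pdgfrl (0.983), Thbs4 (0.982), a matrix protein, and Smpd3 (0.982), a sphingomyelinase of bone and cartilage. For Car2 1386922_at they were Ucp2 (0.986), a mitochondrial carrier, RatNP-3b (0.970), a neutrophil defensin, Lyl1 (0.967), a transcription factor of blood cells, Ypel4 (0.967) and Fam117a (0.966). For Car2 1367733_at they were Gypc (0.972), a red cell membrane protein, Pf4 (0.954), a platelet chemokine, Fam117a (0.953), Ucp2 (0.946) and Emb (0.945).

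Likeness of the deviations, which leaves out the mean difference between tissues, gave other names. For Acp5 these were Ppp2r2c (0.817), Fgb (0.816), a fibrinogen chain made by hepatocytes, Farp2 (0.791), Camk2b (0.784) and Vcsa2 (0.777). For Ctsk they were Mlip (0.940), a muscle protein, Mmp13 (0.928), the collagenase of hypertrophic cartilage and bone, Synpo2l (0.920), a protein of striated muscle, Calb1 (0.919), a calcium-binding protein, and Sln (0.915). Mmp13 read 9.78 in control bone, 10.26 in EMD50, 8.46 in EMD150 and 11.60 in RA, which is the same order of the 4 arrays as for Ctsk. The SD of Ctsk was 0.78 in bone and at most 0.27 in any other stratum, so its likeness rests largely on these 4 single arrays. For Car2 1386922_at they were Mkln1 (0.836), Antxr2 (0.803), Trappc4 (0.760), Cct2 (0.753) and Zscan25 (0.724). For Car2 1367733_at they were L3hypdh (0.805), Jag2 (0.797), Fam171a2 (0.790), Polr2g (0.790) and Pcgf6 (0.774), none shared with its partner probe set. Ppp2r2c, Vcsa2 and Zscan25 had stratum means of at most 6.72, below the lower quartile of every array (6.79 or above).

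The next question was how the members stood in embryo bone under each treatment. Each value there is a single array, so these differences have no replicate check and no p-value. The SD of the members' deviations in the fit over all arrays, given for scale, was 0.34 for Acp5, 0.39 for Ctsk, 0.24 for Car2 1386922_at and 0.27 for Car2 1367733_at. In bulk tissue, fewer cells of a type and less RNA per cell cannot be told apart. All 3 treatments are set against the same control array.

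Acp5 in bone was lower than control under both doses of EMD 82571, by 0.93 (1.91-fold) in EMD50 and by 1.14 (2.20-fold) in EMD150. In RA it differed by -0.18. The control and RA arrays were thus the high pair and the EMD 82571 arrays the low pair, with all 4 far above the other tissues. The EMD50 array of the low pair is the one with the large 3′ to 5′ GAPDH difference (2.72). On that array Ctsk and Car2 1367733_at lay above control, by 0.27 and 0.38. Of all probe sets, 2.32% were as far below control as Acp5 in EMD50, and 0.416% in EMD150.

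Ctsk in bone was higher than control by 0.27 in EMD50, lower by 0.74 (1.67-fold) in EMD150 and higher by 1.14 (2.20-fold) in RA. It was thus highest in RA and lowest in EMD150, and the EMD50 array, which Acp5 placed with EMD150, lay beside control. Ctsk was 3.68-fold (log2 1.88) higher in RA than in EMD150. Of all probe sets, 0.454% were as far above in that direction.

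Car2 1386922_at differed from control in bone by -0.22 in EMD50, -0.63 in EMD150 and 0.21 in RA. Car2 1367733_at read 9.75 in control, 10.14 in EMD50, 9.29 in EMD150 and 9.97 in RA, or 0.38, -0.46 and 0.22 from control. Both probe sets were lowest in EMD150 and opposite in sign in EMD50. All 4 member probe sets, 2 of them of Car2, were lower in EMD150 than in control, as were 7068 of all 15866 probe sets. They were also lower in EMD150 than in RA, by amounts that 0.454% (Ctsk) to 10.8% (Car2 1367733_at) of all probe sets reached.

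At 2-fold, none of the 4 member probe sets was lower in EMD50, beside 1.88% of all probe sets. In EMD150, 1 of 4 was lower, Acp5, beside 0.63%. In RA, 1 of 4 was higher, Ctsk, beside 2.4%.

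**Figure D2:**
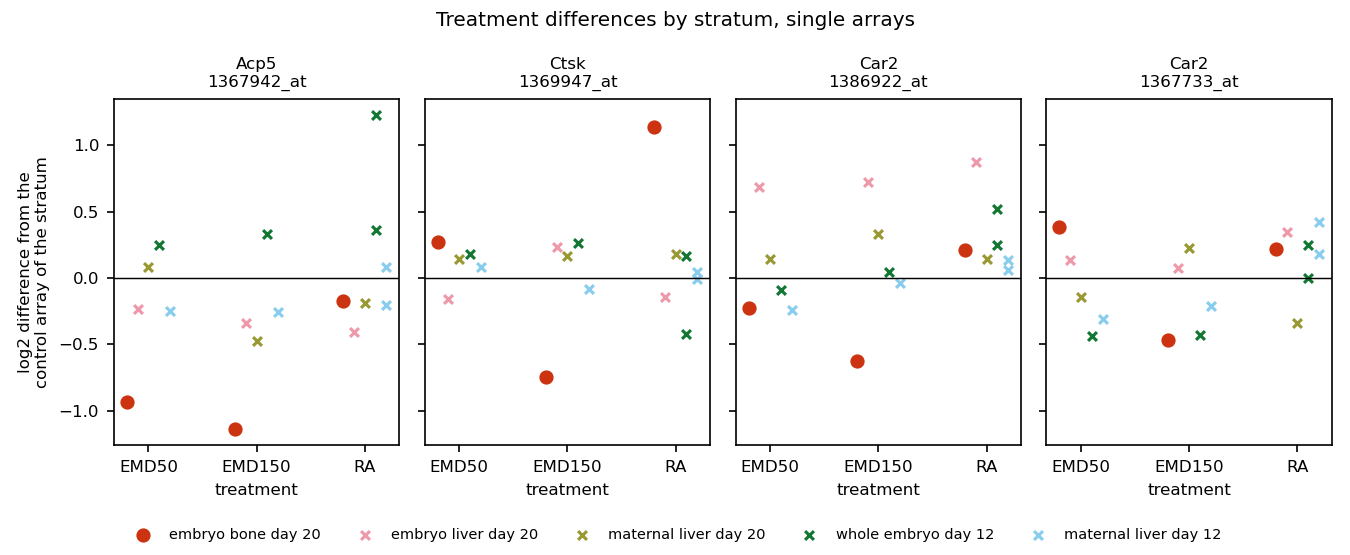
Difference of each treated array from the control array of its own stratum (vertical axis, log2) for the 4 member probe sets, by treatment (horizontal axis). Filled circles are embryo bone and crosses the other strata. In bone, Acp5 lies at -0.93 and -1.14 under EMD 82571, and Ctsk at -0.74 in EMD150 and 1.14 in RA.

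Whether the treatment differences in bone departed from those in the other strata was tested with a bone-by-treatment term, a model added after the data had been seen. It rests on 1 bone array per treatment and takes its spread from the other strata. For Ctsk in RA the departure was 1.16 ± 0.27 (limma, adjusted p = 0.0530), with a difference from control of 1.14 in bone and -0.027 in the other strata. This missed the threshold, which 1.02% of all probe sets passed. Without 1 array it passed in 4 of 18 cases, with adjusted p-values from 0.0145 to 0.0992 over the 18. The arrays whose omission gave a pass were RA5 and RA56 of whole embryo and EMD150 of embryo liver and of maternal liver at day 12.

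In EMD150 the departures were -0.96 ± 0.43 for Acp5 (adjusted p = 0.999), -0.89 ± 0.28 for Ctsk (0.416) and -0.90 ± 0.30 for Car2 1386922_at (0.472), in a comparison that called 0.372% of all probe sets. In EMD50 the departure was -0.90 ± 0.43 for Acp5 (0.319), with 2.91% called. None of the 12 departures, for 4 probe sets and 3 treatments, passed.

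Over all strata together, no member passed the test of any treatment against control. EMD150 minus control was -0.38 ± 0.19 for Acp5 (limma, adjusted p = 0.297), -0.031 ± 0.22 for Ctsk (0.946) and 0.089 ± 0.14 for Car2 1386922_at (0.740). No probe set at all was called for EMD150 or EMD50 (0%), while 2925 and 253 had an unadjusted p under 0.05. RA minus control called 1.83% of all probe sets but gave 0.026 ± 0.18 for Acp5 (0.976), 0.15 ± 0.20 for Ctsk (0.852) and 0.34 ± 0.13 for Car2 1386922_at (0.242). EMD150 minus RA called 14.4% and gave -0.40 ± 0.18 for Acp5 (0.124), -0.18 ± 0.20 for Ctsk (0.544) and -0.26 ± 0.13 for Car2 1386922_at (0.179). In embryo liver, where Car2 was highest, the 3 treated arrays were above control by 0.68, 0.72 and 0.88 on 1386922_at, and by 0.14, 0.07 and 0.34 on 1367733_at.

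The members were then set beside other osteoclast genes, a list of 83 genes in 4 roles of which 61 were measured. Those not measured included Nfatc1, Spi1 (the gene of PU.1), Tnfrsf11a (the receptor of RANKL), Oscar, Tcirg1, Atp6v0d2, Itgb3, Dcstamp, Ocstamp and Siglec15. The counts below cover the 61 measured genes only and say nothing about these. In embryo bone against the mean of the other strata, 28 were higher and 9 lower, with a median difference of 0.18 (limma, adjusted p under 0.05), beside 24.9% higher, 26.8% lower and a median of -0.046 over all probe sets. The members are 3 of the 61, and without them 26 of 58 were higher and 8 lower. Without the EMD50 bone array 33 of 61 were higher, and without the control and RA bone arrays 24. The number called over all probe sets moved too, from 7001 to 8626 as each array was left out in turn (8213 with all arrays). The shares of 24.9% and 26.8% belong to the fit with all arrays. Shares under the omissions are not given, so changes in counts here and in the roles and families below are no result about the lists.

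Among the 18 measured genes of acid and enzyme secretion, 10 were higher and 2 lower, or 14 and 2 without the EMD50 bone array. Mmp9 was higher in bone by 4.01 ± 0.18, Acp5 by 3.29 ± 0.17, Ctsk by 3.06 ± 0.19 and Anxa2, a membrane-binding annexin, by 2.35 ± 0.13 (limma, adjusted p at most 5.16e-11). Over embryo liver alone Anxa2 was higher by only 0.44 ± 0.16 (limma, adjusted p = 0.0278). Its bone arrays, from 11.85 up, overlapped those of embryo liver, which reached 12.28. Of the 6 measured proton pump genes, Atp6v1b2 (0.65 ± 0.08), Atp6v1a (0.58 ± 0.08), Atp6v1e1 (0.50 ± 0.10) and Atp6ap1 (0.43 ± 0.15) were also higher. Only Atp6v1a of these passed against every single stratum. Atp6v1b2 and Atp6v1e1 did not pass over whole embryo (limma, adjusted p = 0.0617 and 0.0819). Atp6ap1 did not pass over maternal liver of day 20 or day 12 (0.242 and 0.246). Atp6v1c1 (0.18 ± 0.10, limma, adjusted p = 0.149) and Atp6v0c (0.076 ± 0.10, 0.543) did not pass. The 2 lower ones were Car2 and Rab7a, a GTPase of late endosomes (-0.30 ± 0.08). Clcn7, whose product carries chloride beside the pump, was not told apart (-0.12 ± 0.10, adjusted p = 0.327).

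Of 14 genes of adhesion and cell fusion, 10 were higher and 1 lower, or 11 and 1 without the EMD50 bone array. Cd9, a tetraspanin that takes part in cell fusion, was higher by 1.85 ± 0.15, and Vcl, which anchors actin at adhesion sites, by 1.09 ± 0.12. Itgb1, an integrin chain, was higher by 1.07 ± 0.10 and Cd44, a hyaluronan receptor, by 0.81 ± 0.16. Over embryo liver alone Cd9 did not pass (0.39 ± 0.19, limma, adjusted p = 0.0838), while Vcl, Itgb1 and Cd44 passed over every other stratum. The lower one was Cd47 (-0.43 ± 0.10), which over whole embryo alone was higher in bone (0.63 ± 0.12).

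Of 13 genes of signals and receptors, 4 were higher and 2 lower, or 4 and 1 without the EMD50 bone array, and the share called higher lay near the 24.9% over all probe sets. Tyrobp, the adaptor DAP12, was higher by 0.64 ± 0.11, Tnfrsf11b, the decoy receptor osteoprotegerin, by 0.54 ± 0.11, Sirpa by 0.34 ± 0.13 and Tnfsf11, the gene of RANKL itself, by 0.18 ± 0.06 (limma, adjusted p = 0.0111). Against single strata, Tyrobp (1.90 ± 0.14) and Tnfsf11 (0.35 ± 0.07) passed over whole embryo only, and over no liver stratum. Sirpa did not pass against either maternal liver, nor Tnfrsf11b against that of day 12. Tnfsf11 read 6.32 to 6.54 in bone, below the lower quartile of every array (6.79 or above). With each array centred on its median 2 of the 13 were higher, and without the control and RA bone arrays 1. Il1r1 (-0.61 ± 0.08) and Lgr4 (-0.36 ± 0.11) were lower. Csf1r, the receptor for the growth factor of osteoclast precursors, did not pass (0.34 ± 0.16, 0.0728).

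Of 16 transcription factor genes, 4 were higher and 4 lower, or 6 lower with quantile normalization or median centring. Both shares lay near those over all probe sets (24.9% higher and 26.8% lower), so the counts are no result about this role, and the genes below are given for their own values. The higher ones were Nfkb1 (0.68 ± 0.08), Jdp2 (0.60 ± 0.07), Nfkb2 (0.38 ± 0.08) and Jun (0.30 ± 0.09). The lower ones were Cebpa (-1.52 ± 0.14), a factor of hepatocytes and myeloid cells, Irf8 (-0.51 ± 0.08), a repressor of osteoclast formation, Fosl1 (-0.37 ± 0.09) and Fos (-0.17 ± 0.07). Over whole embryo alone none of these was called lower in bone, and Irf8 was higher (0.43 ± 0.10). Mitf did not pass (0.11 ± 0.07, limma, adjusted p = 0.174). It read 6.46 to 6.85 in bone, below the lower quartile of each bone array (6.93 or above), so this says little about Mitf.

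**Figure D3:**
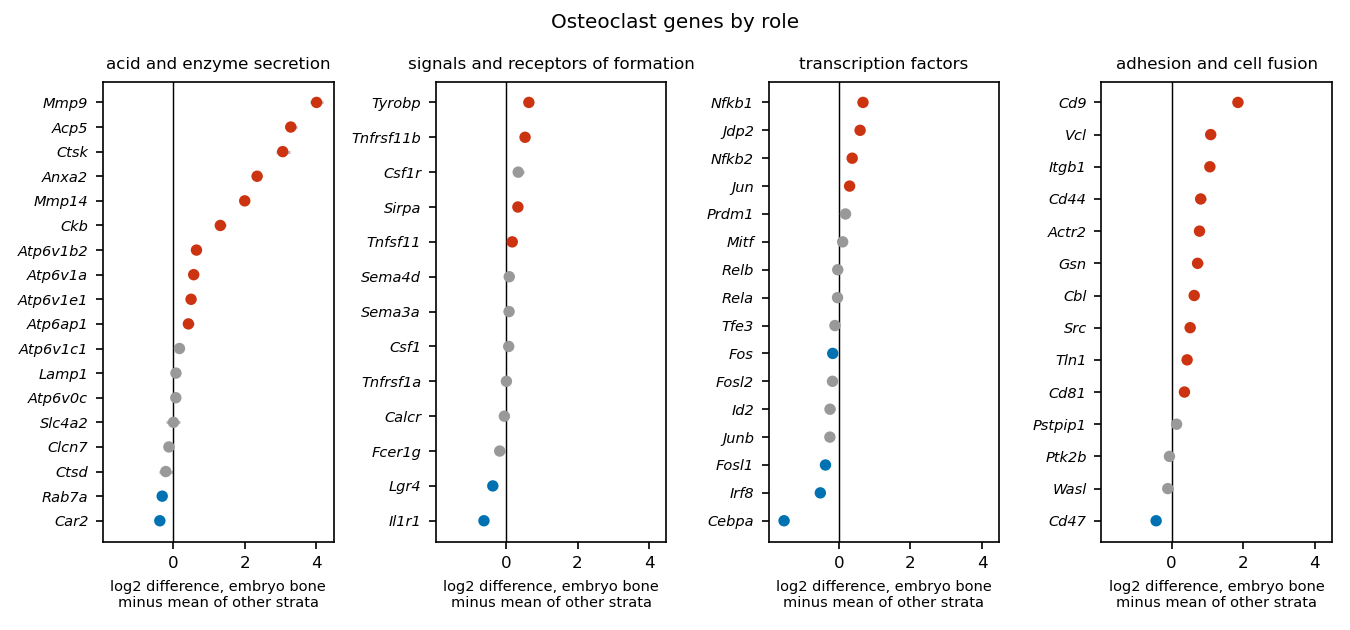
Difference between embryo bone and the mean of the other strata (horizontal axis, log2, with SE) for 61 osteoclast genes in 4 roles. Red points were higher and blue points lower at an adjusted p under 0.05 (limma), and grey points did not pass. Mmp9 at 4.01, Acp5 at 3.29 and Ctsk at 3.06 lead the list, and Car2 at -0.37 lies at the lower end of its role.

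Within bone, single arrays placed other genes of the list beside the members. In EMD150, 3 of 61 were 2-fold or more below control, beside 0.63% of all probe sets: Mmp9 (by 1.35), Cd9 (by 1.17) and Acp5. Anxa2 was lower by 0.95 and Ckb, the brain-type creatine kinase gene, by 0.93. In EMD50, 5 of 61 were 2-fold or more lower, beside 1.88%: Ctsd (by 1.72), a lysosomal protease gene, Slc4a2 (by 1.61), the bicarbonate exchanger gene that balances acid secretion, Ckb (by 1.38), Cd9 (by 1.04) and Atp6ap1 (by 1.03). In EMD150, Slc4a2 was lower by 0.38, Atp6ap1 by 0.16 and Ctsd differed by 0.013, and EMD50 is the array with the large 3′ to 5′ difference. In RA, 2 of 61 were 2-fold or more above control, beside 2.4%: Cd44 (by 1.41) and Ctsk. The medians over the list were -0.068 in EMD50, -0.11 in EMD150 and 0.12 in RA, beside -0.0021, 0.029 and 0.0035 over all probe sets.

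Within their own enzyme families, Acp5 and Ctsk stood at the top of the bone difference. Acp5 was the only 1 of 5 measured acid phosphatases that was higher in bone, while Acp2 (-0.73 ± 0.08), Acp1 (-0.70 ± 0.09) and Acp6 (-0.37 ± 0.11) were lower and Acp3 did not pass (0.042 ± 0.06). Without the EMD50 bone array 2 of the 5 were lower. Over all probe sets 24.9% were called higher and 26.8% lower, which applies to all 3 families. Of 12 cathepsins, Ctsk and Ctsz (0.55 ± 0.18, limma, adjusted p = 0.0170) were higher, a share no larger than that over all probe sets (24.9%), and 7 were lower, beside 26.8%. The 7 were Ctsc (-1.69 ± 0.10), Ctsl (-1.17 ± 0.31), Ctse (-1.10 ± 0.10), Ctss (-0.75 ± 0.10), Ctsh (-0.50 ± 0.13), Ctsb (-0.35 ± 0.12) and Ctsf (-0.22 ± 0.09). Without the EMD50 bone array 3 cathepsins were higher and 6 lower, and without the control and RA bone arrays 1 and 4. Against this mean, in which 3 strata are liver, Ctss, a cathepsin of macrophages, thus lay on the other side of 0 from Ctsk. Over whole embryo alone, Ctsh (2.10 ± 0.15), Ctsf (1.14 ± 0.10), Ctss (1.03 ± 0.13) and Ctsb (0.51 ± 0.15) were called higher in bone. In that comparison 19.9% of all probe sets were called higher, and Ctsc, Ctsl and Ctse did not pass.

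Of 11 carbonic anhydrases, 8 were lower in bone and 2 higher, beside 26.8% and 24.9% of all probe sets. The counts were 7 and 2 without the EMD50 bone array, and 5 and 1 without the control and RA bone arrays. Car3, the form of muscle and fat, was higher by 2.86 ± 0.24 (adjusted p = 3.49e-09) and Car11 by 0.36 ± 0.10. The lower ones included Car2 and Car1 (-0.88 ± 0.10), the red cell form, which like Car2 was highest in embryo liver (mean 11.09, against 6.82 to 7.10 in the other 4 strata). Over the 22 arrays Car1 and Car2 1386922_at had r = 0.960.

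**Figure D4:**
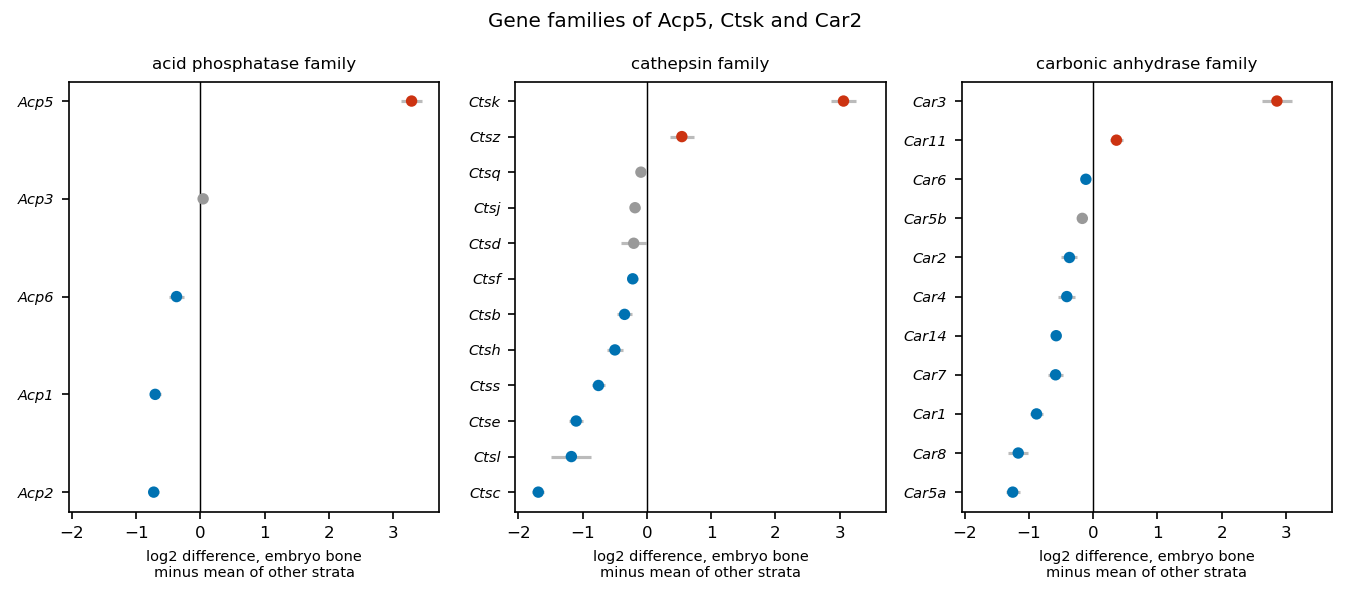
Difference between embryo bone and the mean of the other strata (horizontal axis, log2, with SE) for the measured acid phosphatases (5), cathepsins (12) and carbonic anhydrases (11). Colours are red for higher, blue for lower and grey for not called (limma, adjusted p under 0.05). Acp5 at 3.29 and Ctsk at 3.06 stand alone at the right of their families, and Car2 at -0.37 lies with most carbonic anhydrases to the left of 0.

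Markers of other cells also varied between the 4 bone arrays, and their part in the member differences was not tested. Hepatocyte genes, 18 of 20 measured, had a mean log2 level of 9.42 in control, 7.55 in EMD50, 7.77 in EMD150 and 9.17 in RA, so they split the arrays as Acp5 did. Between 1 and 8 of the 18 lay below the array's lower quartile. Acp5 itself was at 8.68 to 9.08 in embryo liver, below every bone array. Skeletal muscle genes (20 of 20) were at 10.76, 10.52, 10.42 and 11.16 in control, EMD50, EMD150 and RA, and osteoblast and osteocyte genes (14 of 19) at 10.70, 10.59, 10.24 and 11.08. Against the mean of the other strata, 16 of the 20 muscle genes were higher in bone and 1 lower, with a median difference of 3.68. Of the 14 osteoblast and osteocyte genes 12 were higher and 0 lower, with a median of 2.95. Over all probe sets 24.9% were called higher and 26.8% lower. Both lists were lowest in EMD150 and highest in RA, as Ctsk was.

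Cartilage genes (12 of 19) were lowest in control and higher under both doses of EMD 82571, at 9.68 in control, 10.36 in EMD50, 10.34 in EMD150 and 9.83 in RA. Macrophage genes (14 of 21), of the lineage that osteoclasts come from, were at 8.75, 8.43, 8.66 and 8.52. Across tissues, macrophage genes had a mean of 9.02 or above in every liver array, 8.43 to 8.75 in bone and 7.25 to 7.64 in whole embryo. They thus lay lower in bone than in the livers, where Acp5 and Ctsk lay higher, and were lowest in whole embryo, as were both genes. Neutrophil and marrow genes (8 of 18) lay between 6.89 and 7.21 in the bone arrays and mast cell genes (10 of 11) between 7.38 and 7.58. The muscle list was also at 9.35 in the RA maternal liver array of day 20, where Acp5 read 9.54 and Ctsk 9.08, against 9.26 to 9.82 and 8.89 to 9.06 on the other 3 arrays of that stratum.

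**Figure D5:**
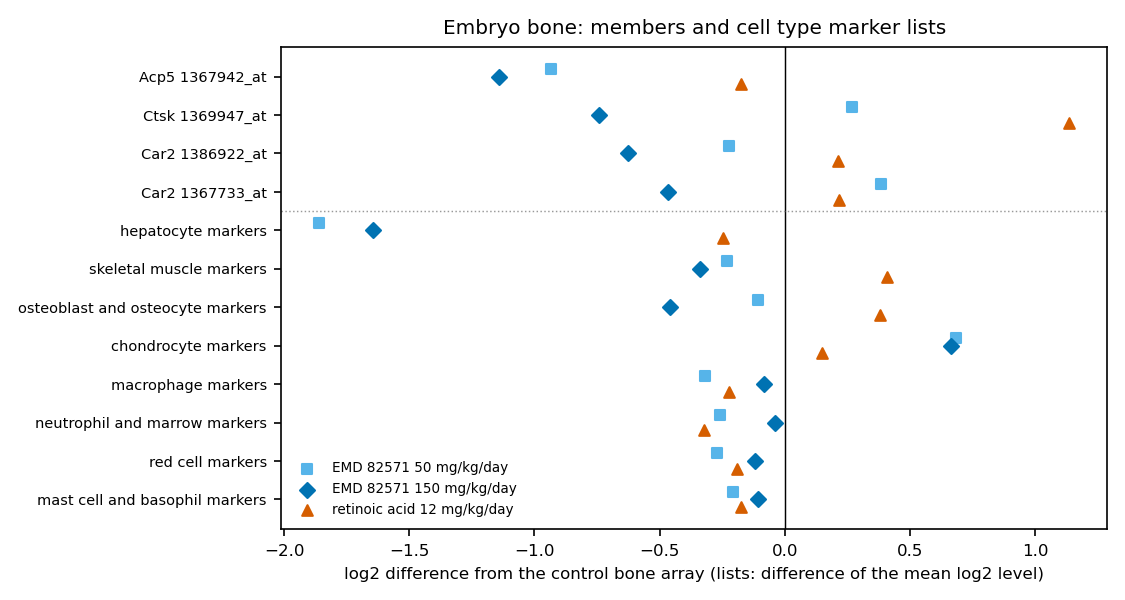
Differences from the control bone array (horizontal axis, log2) for the 4 member probe sets (above the dotted line) and for the mean log2 level of 8 marker lists (below it), 1 point per treatment and single arrays throughout. Hepatocyte genes differ by -1.86 in EMD50 and -1.65 in EMD150 and by -0.25 in RA, and cartilage genes by 0.68, 0.66 and 0.15.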

How the data were processed

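RNA was measured on 22 single-colour expression arrays. Per the submitters' processing notes, the deposited log2 values are from RMA. The sources used here give neither its version nor whether all arrays went through it together. The array medians ran from 8.09 to 8.22. Of 15923 rows, 57 array controls were left out. Gene symbols came from the platform annotation; 12783 probe sets had 1 symbol, 312 several and 2771 none. A linear model of all arrays was fitted in limma 3.58.1 (R 4.3.3; stratum and treatment, eBayes with an intensity trend, 14 residual degrees of freedom). Tests were two-sided, with Benjamini-Hochberg adjustment over all 15866 probe sets of each of 15 comparisons and a threshold of 0.05. The bone-by-treatment model left 11 residual degrees of freedom and gave 3 more comparisons. The code was tested on simulated data. The number of arrays limits the precision.

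The members and gene lists were chosen with earlier results of these data known. All member probe sets are named; other genes are represented by the probe set with the highest mean. List genes are named per role, up to 4 called genes per direction by size of the bone difference, and up to 4 per direction and treatment within bone; all measured family members may be named; likeness names the 5 genes with the highest r. Atp6v1b2, Atp6v1a, Atp6v1e1, Atp6v1c1, Atp6v0c, Atp6ap1, Clcn7, Csf1r, Mitf and the pair of Car1 with Car2 fall outside that rule and were chosen after their values were seen. Alternatives were quantile normalization, median centring, a filter on low probe sets, no treatment block, only the strata compared, no trend, array weights, the other Car2 probe set, no embryo bone stratum and leaving out each array; a block of the RA5 and RA56 codes and the omission of the control and RA bone arrays were added later. All 20 groups of a member probe set and a stratum were checked for a lone array by Dixon's criterion, which picked out none.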

Additional observations from a re-analysis of the deposited data

How the results depend on the processing

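The bone differences of Acp5 and Ctsk from the mean of the other strata and from each of them kept direction and call under every alternative run and without each of the 22 arrays (3.11 to 3.43 and 2.70 to 3.40 against the mean). Bone has 1 array per treatment, which limits the precision, and the cause of the changes below was not tested.

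For Car2 in bone against the mean of the other strata, array weights gave -0.11 and the other probe set -0.16, both below the threshold, and leaving out 1 array gave -0.48 to -0.19. Against whole embryo, array weights gave 0.55 (adjusted p = 0.0102), the other probe set -0.084 and the omission of the control and RA bone arrays, an alternative chosen after seeing the data, -0.030; leaving out 1 array gave 0.13 to 0.42, with a pass without the EMD150 bone array. Leaving out the control and RA bone arrays also gave 0.35 against maternal liver of day 20 and 0.23 at day 12, both below the threshold. The other Car2 probe set gave -0.64 between the maternal livers and 0.67 for whole embryo against maternal liver of day 12, both past it, and 0.38 for EMD50 within bone.

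Among differences that passed no test, the sign turned for Ctsk in EMD150 over all strata (0.036 with quantile normalization, 0.0088 with array weights, 0.15 without bone), Ctsk in RA (-0.027 without bone), Ctsk in EMD150 against RA (0.17 without bone), Acp5 in RA (-0.049 with quantile normalization, -0.17 with array weights), Car2 on the other probe set (-0.073 in EMD50, -0.16 in EMD150, and departures of bone of 0.57 in EMD50 and 0.051 in RA), and Ctsk in embryo liver against maternal liver of day 20 (0.0078 with quantile normalization) and day 12 (-0.022 with array weights).

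Leaving out 1 array gave -0.094 to 0.15 for Car2 in EMD50, -0.060 to 0.23 for Car2 in EMD150, -0.14 to 0.24 for Ctsk in EMD150, -0.16 to 0.16 for Acp5 in RA, -0.072 to 0.25 for Ctsk in RA and -0.30 to 0.072 for Ctsk in EMD150 against RA. Between strata it gave -0.84 to -0.62 for Acp5 and -0.17 to 0.063 for Ctsk in embryo liver against maternal liver of day 20, -0.085 to 0.15 for Ctsk in embryo liver and -0.65 to -0.40 for Ctsk in whole embryo against maternal liver of day 12, and 1.08 to 1.21 for the departure of Ctsk in RA. The probe sets called ranged from 0 to 437 for RA and from 481 to 4156 for EMD150 against RA. The only codes that groups share are RA5 and RA56, whose meaning the labels do not give. With these codes as a replicate block, added after seeing the data, the bone differences of Acp5, Ctsk and Car2 from the mean of the other strata were 3.31, 3.06 and -0.38, and no call changed among the differences between strata recomputed with it. Over all probe sets, RA5 minus RA56 in whole embryo and in maternal liver of day 12 had r = -0.140, and the comparison of these strata called 11072 probe sets without the block, 11108 with it and 11224 with the codes crossed. No code links a treated array to a control, so the block was not applied to the treatment comparisons.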
